A study of Mus musculus with 18 samples.

Results

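The genotype difference in the day 1 to day 4 response is, for each gene, the change in xCT knockout (KO) pancreatic acinar cells between day 1 and day 4 of culture minus the change in wild-type (WT) cells over the same days. It was taken over 12 of the 18 RNA-sequencing libraries of the study, 3 in each of 4 groups. All 18 libraries entered the model that estimated the spread. Its members were the 13203 genes, of 46603 in the count table, that passed a filter on low counts. KO cells came from xCT-/- mice and WT cells from xCT+/+ mice, and the groups were KO at day 1, WT at day 1, KO at day 4 and WT at day 4. All cultures were acinar preparations taken fresh from the mouse pancreas, held in Advanced RPMI as a suspension, a setting in which the cells dedifferentiate. The labels name no added agent. The deletion belongs to the mouse and not to a cell type, so any other cells in a KO culture lacked xCT too. Neither age nor sex is labelled, nor whether the 3 libraries of a group came from separate mice, so the p-values measure the spread between libraries, which may be technical. The comparison asks whether the loss of xCT alters how gene expression moves between early and late culture.

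xCT, encoded by Slc7a11, is the light chain of the cystine/glutamate antiporter and is carried to the membrane by the heavy chain Slc3a2. Imported cystine is reduced to cysteine, which limits the synthesis of glutathione, and the peroxidase Gpx4 uses glutathione to detoxify lipid peroxides. Cells that cannot do this may die by ferroptosis, a form of death that depends on iron. Acinar cells make the digestive enzymes of the pancreas. After isolation they pass through an acute stress response, lose their enzyme transcripts and take on features of duct and progenitor cells. Stellate cells and fibroblasts of the pancreas make most of its collagenous matrix, and can be carried along in acinar preparations.

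Library totals were 14561075 to 15641110 counts in KO at day 1, 13092204 to 14545420 in WT at day 1, 17809132 to 19533947 in KO at day 4 and 18459524 to 20135435 in WT at day 4. The 10 most abundant genes took 52.7 to 57% of the counts at day 1 and 15.5 to 22.6% at day 4, and levels below are counts per 1000000 (CPM) of the library total after scaling by trimmed mean of M-values (TMM). The targeted gene had 1.0, 1.02 and 1.47 CPM in KO at day 1, against 70.2, 63.9 and 77.1 in WT at day 1. At day 4 Slc7a11 had 0.373, 0.556 and 0.475 CPM in KO, against 39.3, 39.4 and 36.7 in WT. Its day 1 to day 4 change did not differ between the genotypes beyond the spread (log2 difference -0.42 ± 0.28 SE, adjusted p = 0.52, edgeR). Library 1 of KO at day 1 was above its replicates in some genes read below. Malat1 was at 11.7 CPM there and at 3.21 and 3.40 CPM in libraries 2 and 3. Xist was at 69.1 against 23.1 and 20.8 CPM, and Fbn1 at 9.28 against 1.71 and 1.55 CPM. Over all genes this library did not stand out. Of 7585 genes above 5 CPM, 39 lay over 2-fold from the other libraries of the group, against 14 for library 2 and 49 for library 3. Library 1 of WT held 18 counts of the Y-linked gene Ddx3y at day 1 and 92 at day 4, and no other library among the 12 held any, so a part of any KO to WT difference cannot be told apart from the sex of the mice. Values without KO day 1 library 1 or WT library 1 are therefore also given below for some of the calls that change. Further calls that were lost without WT library 1 are named near the end.

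A gene was called when the difference of the 2 changes had a Benjamini-Hochberg adjusted p under 0.05 in edgeR's quasi-likelihood test. Of the 13203 genes, 343 (2.6%) were called. In 122 (0.924%) the KO change was the higher of the pair, and in 221 (1.67%) it was the lower. At an unadjusted p under 0.05 the count was 1896. Each genotype by itself moved far more genes: 7046 (53.4%) changed between day 1 and day 4 in KO cells and 6904 (52.3%) in WT cells, and across genes the changes had a Pearson r of 0.76, a description in which genes are not independent replicates. Scaling by library totals alone, without TMM, shifted the median difference to -0.16, against -0.01 with TMM, and the split to 23 higher and 263 lower. Higher genes were then 8.04% of those called, against 35.6% with TMM.

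The number of calls depended on single libraries. It was 55 higher and 125 lower without WT day 1 library 1, 55 and 126 without KO day 4 library 2, 58 and 141 without KO day 4 library 3, and 59 and 142 without WT day 4 library 1. It was 67 and 146 without WT day 4 library 2, 59 and 148 without KO day 1 library 2, 79 and 151 without WT day 1 library 2, and 79 and 214 without KO day 4 library 1. Without KO day 1 library 1 the calls came to 176 higher and 245 lower, and 253 of these 421 were also called with all libraries. Leaving out WT library 1 at every day left 32 higher and 77 lower. All 343 genes kept their direction in each of these fits. The fits reuse most of the libraries that made the calls, so a kept direction was largely fixed in advance.

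By group means, most called genes crossed over between the days. Calling genes on the difference of the 2 changes favours such a pattern, and its share over all tested genes was not counted. Of the 221 lower genes, 212 had a KO mean above the WT mean at day 1 and below it at day 4. Of the 122 higher genes, 112 had a KO mean below that of WT at day 1 and above it at day 4. Among the lower genes 135 (61.1%) had a negative change in KO cells and a positive change in WT cells, 51 had positive changes in both and 35 negative changes in both. Their median change was -0.96 log2 in KO cells and 1.52 log2 in WT cells. Of these 221, 115 fell in KO cells, where 27.1% of all genes fell, and 156 rose in WT cells, where 26.3% of all genes rose. Among the higher genes 55 had negative changes in both genotypes, 49 a positive change in KO and a negative change in WT cells, and 18 positive changes in both. Their median change was 0.14 log2 in KO cells and -0.85 log2 in WT cells.

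**Figure D1:**
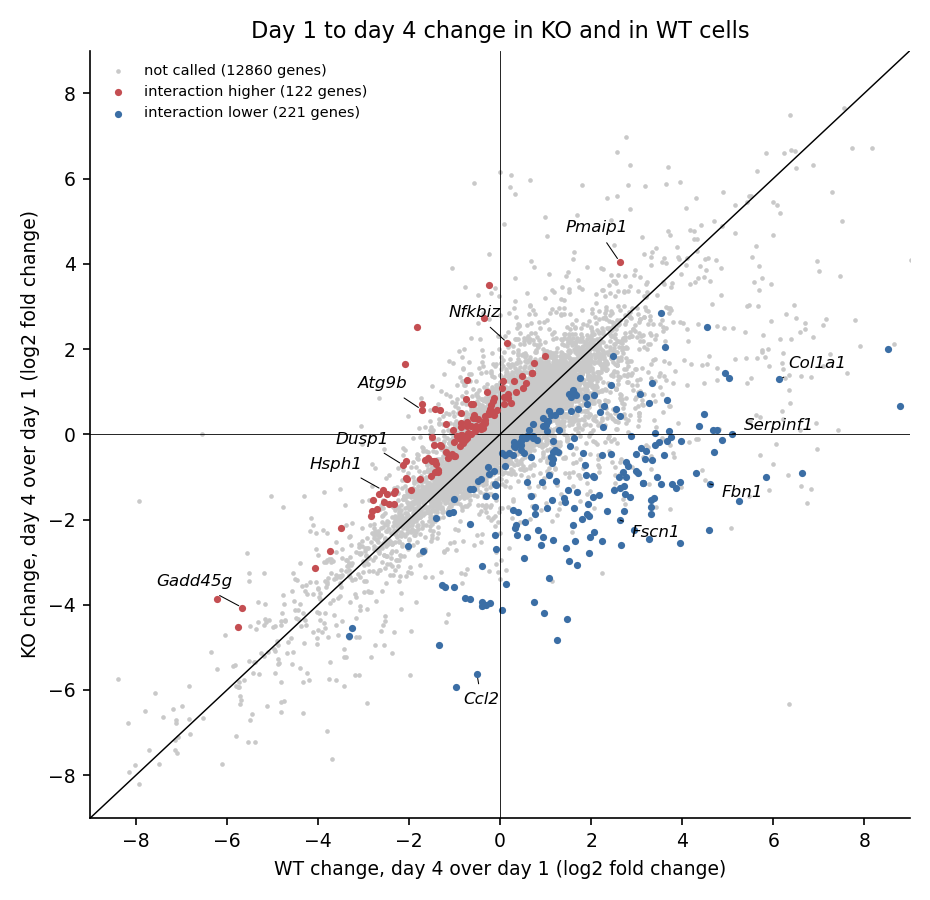
Change between day 1 and day 4 of 13203 genes in KO cells (vertical axis, log2 fold change) against the change in WT cells (horizontal axis, log2 fold change); each point is a gene, red where the KO change was called higher, blue where it was called lower and grey where it was not called, the diagonal marks equal changes, and 5 genes lie outside the axes. The 221 lower genes spread far to the right of the diagonal with a median difference of -2.75, and the 122 higher genes lie in a narrow band above it with a median of 0.85.

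The difference between the genotypes was also read day by day, in comparisons that share no libraries. Same-numbered libraries of the 2 days may share a culture, so these readings may not be independent. At day 1, 15 of the 221 lower genes were called higher in KO than in WT cells and 2 lower, in a comparison that called 0.273% of all genes higher and 1.18% lower. At day 4, 192 of the 221 were called lower in KO and 0 higher, where 10.2% of all genes were called, 6.39% lower and 3.83% higher. Among the 122 higher genes, 30 were called lower in KO at day 1 and 0 higher, and 73 were called higher in KO at day 4 and 0 lower. These counts use the values that made the calls and are given as a description. The KO and WT libraries did not overlap at day 1 in 157 of the 343 called genes and in 17.1% of all tested genes, and at day 4 in 315 of the 343 and in 43.7% of all tested genes.

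Of the 221 lower genes, 173 were in no list. Of the other 48, 28 were in the collagen, metalloproteinase, adhesion or fibroblast marker lists, against 0 of the 20 higher genes that were in any list. The adhesion and marker lists also hold genes that are not extracellular matrix, such as Itga5 and Vim. Among 17 collagens tested, the KO change was called lower in 11 and higher in 0, with a list median of -3.50 against -0.01 over all tested genes. The shares called over all tested genes were 1.67% lower and 0.924% higher. Among 13 markers of fibroblasts and stellate cells it was called lower in 8 and higher in 0, all 13 were negative, and the median was -3.82. These markers include the collagen genes Col1a1, Col1a2 and Col3a1, so this result is not separate from that of the collagens. The median change of the collagens between the days was -1.04 log2 in KO and 2.86 log2 in WT cells, and that of the fibroblast markers -0.47 log2 in KO and 2.98 log2 in WT cells.

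Col1a1 encodes the main chain of type I collagen and lies on chromosome 11 (GRCm38, 94936224 to 94953042, + strand). It had 13.8, 2.39 and 3.48 CPM in KO at day 1 and 2.60, 2.59 and 1.58 CPM in WT at day 1. By day 4 it was at 21.9, 9.95 and 17.1 CPM in KO, against 159.9, 178 and 133 CPM in WT. The groups overlapped at day 1, and at day 4 every WT library was above every KO library. The WT mean was 69.8-fold higher at day 4 than at day 1 (adjusted p = 6.4e-06), and the KO mean 2.45-fold (adjusted p = 0.068). The difference of the log2 changes was -4.83 ± 0.93 (SE, adjusted p = 0.017), with the KO change the lower. Without KO day 1 library 1 it was -3.64 (adjusted p = 0.071), and without WT day 1 library 1 its adjusted p was 0.055. Without WT library 1 at every day it was -4.94 (adjusted p = 0.082).

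Fbn1, which encodes fibrillin-1 of the elastic microfibrils (chromosome 2, 125300594 to 125507993, - strand), had 9.28, 1.71 and 1.55 CPM in KO at day 1, against 0.556, 1.03 and 1.02 in WT. Its day 4 levels were 2.64, 1.5 and 1.55 CPM in KO, against 22.7, 21.9 and 18.9 in WT. The groups did not overlap on either day, and their order was turned round between the days. Its difference of -5.77 ± 0.92 (SE, adjusted p = 0.0058) was the lowest among called genes with a group mean of at least 5 CPM, and it was -4.39 (adjusted p = 0.0025) without KO day 1 library 1. Without WT library 1 at every day it was -5.47 and no longer passed (adjusted p = 0.069).

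The lysyl oxidase Lox, which crosslinks collagen and elastin, had 3.34, 1.02 and 1.01 CPM in KO at day 1 and 0.371, 0.517 and 1.21 CPM in WT at day 1. It had 2.95, 1.4 and 1.55 CPM in KO at day 4, against 18, 22.9 and 13.9 CPM in WT. KO cells held about the same level on both days, while WT cells rose 25.8-fold (adjusted p = 2e-06), for a difference of -4.58 ± 0.75 (SE, adjusted p = 0.0046, and 0.066 without WT library 1 at every day).

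The microfibrillar collagen chain Col6a3 had 11.3, 3.07 and 2.55 CPM in KO at day 1 and 1.39, 1.86 and 1.39 CPM in WT at day 1. The day 4 levels were 3.24, 1.58 and 2.78 CPM in KO and 23.6, 24.8 and 14.8 CPM in WT. Its KO values lay above all WT values at day 1 and below all of them at day 4, and the difference was -4.94 ± 0.77 (SE, adjusted p = 0.0047, and 0.063 without WT library 1 at every day). Its partner chain Col6a2 differed by -4.85 (adjusted p = 0.0018) and Col5a3, a fibril-forming chain of type V collagen, by -5.06 (adjusted p = 0.00046). Col5a1, from the same collagen type, differed by -4.99 (adjusted p = 0.031), but lost its call in 8 of the 12 fits that each left out a library, with adjusted p of 0.06 to 0.17 in those. The called collagens fell to 6 of 17 without KO day 1 library 1, and likewise to 6 without WT day 1 library 1. Without WT library 1 at every day they were 4 of 17 (median -3.27).

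Basement membrane collagen showed the same order as Col6a3, at higher levels than Col6a3. Col4a1 (chromosome 8, 11198423 to 11312826) had 53.4, 52.3 and 29.2 CPM in KO at day 1, against 18.3, 21.9 and 18.9 in WT. Its levels at day 4 were 16.2, 11.8 and 12.9 CPM in KO, against 38.5, 49.8 and 32.5 in WT. The groups were apart on both days. Col4a1 fell in KO cells (log2 change -1.73, adjusted p = 2.8e-05) and rose in WT cells (1.04, adjusted p = 0.0029), and the difference of -2.76 ± 0.34 (SE, adjusted p = 0.0007) was called in all 12 fits without a library. Its neighbour Col4a2, which lies head to head with it on the opposite strand, differed by -3.08 (adjusted p = 0.0021).

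**Figure D2:**
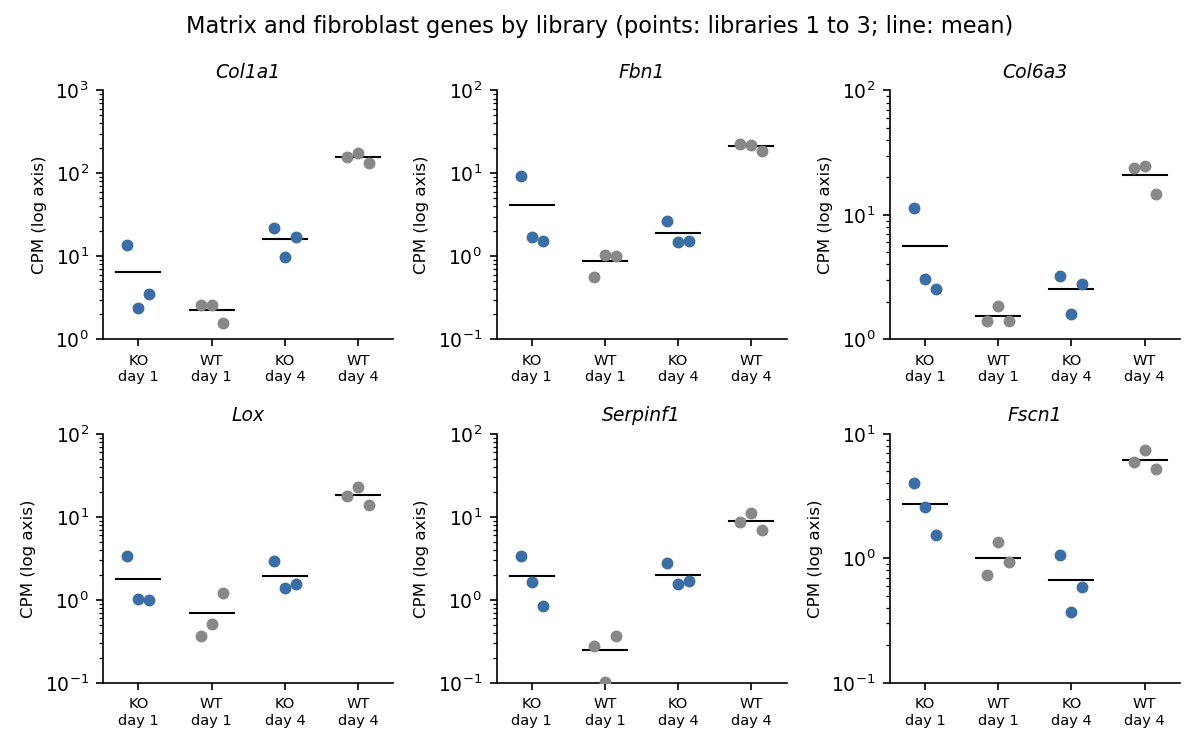
Levels of 6 genes that encode matrix components or belong to motile and mesenchymal cells, in CPM on a log axis, for KO and WT at day 1 and KO and WT at day 4; points are libraries 1 to 3 and lines are group means. For Col1a1 the WT libraries at day 4 sit between 133 and 178 CPM and the KO libraries between 9.95 and 21.9 CPM, and library 1 is the highest KO library at day 1 in all 6 panels.

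Serpinf1, which encodes the secreted antiangiogenic factor PEDF, had, after Fscn1, the smallest adjusted p among the lower genes named here. It had 3.40, 1.64 and 0.851 CPM in KO at day 1, against 0.278, 0.103 and 0.371 in WT. Levels at day 4 were 2.79, 1.53 and 1.71 CPM in KO and 8.76, 11.1 and 6.98 CPM in WT. KO libraries were the higher at day 1 and the lower at day 4, without overlap. Its level did not change in KO beyond the spread (log2 change 0.01, adjusted p = 0.99), rose in WT (5.10, adjusted p = 5.8e-09), and the difference was -5.09 ± 0.64 (SE, adjusted p = 8.5e-05). The 300 bases around its start (RefSeq, GRCm38.p6, chr11:75422574-75422873, - strand) are shown because they hold the C/EBP-ATF element named below at -31 to -24 from the start, in capitals.
Serpinf1: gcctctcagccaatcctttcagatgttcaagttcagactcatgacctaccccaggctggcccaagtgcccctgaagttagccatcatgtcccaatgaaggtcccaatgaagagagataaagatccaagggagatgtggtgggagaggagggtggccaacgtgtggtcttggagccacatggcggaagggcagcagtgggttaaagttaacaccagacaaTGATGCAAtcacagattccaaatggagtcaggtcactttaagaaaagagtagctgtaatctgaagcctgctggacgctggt

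Fscn1, which encodes the actin-bundling protein fascin of motile cells, had 4.01, 2.59 and 1.55 CPM in KO at day 1, against 0.741, 1.34 and 0.929 in WT. By day 4 Fscn1 had 1.07, 0.370 and 0.585 CPM in KO and 5.96, 7.46 and 5.18 CPM in WT. The order of the genotypes was reversed between the days with no overlap on either. Fscn1 fell in KO (log2 change -2.01, adjusted p = 5.3e-05) and rose in WT cells (2.63, adjusted p = 5.6e-06), with a difference of -4.65 ± 0.54 (SE, adjusted p = 2.3e-05).

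Axl, a receptor tyrosine kinase that is also a target of Hippo signalling, had 3.27, 2.93 and 1.62 CPM in KO at day 1 and 1.30, 1.55 and 2.51 in WT. By day 4 Axl had 1.07, 0.387 and 0.538 CPM in KO, against 6.23, 7.01 and 5.38 in WT. The genotypes overlapped at day 1 and were apart at day 4 (difference -3.77 ± 0.49 SE, adjusted p = 0.00011). Vim, the intermediate filament of mesenchymal cells, gave -4.14 (adjusted p = 0.0016), Postn, the matricellular protein periostin, -4.17 (adjusted p = 0.00094), and Dpt, the matrix protein dermatopontin, -4.16 (adjusted p = 0.0025). Igfbp4, a secreted binding protein of insulin-like growth factors, gave -4.69 (adjusted p = 0.0028). The growth factor Fgf2 gave -4.46 (adjusted p = 0.031), but was called in only 5 of the 12 fits without a library, with adjusted p of 0.052 to 0.11 in the others; reads from its antisense neighbour Nudt6 may be counted with it, since the strand setting of the counting is not given in the sources used here.

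The summed level of the 13 fibroblast and stellate markers was 95.5, 45.4 and 26.8 CPM in KO at day 1, against 19.0, 24.9 and 21.8 in WT. At day 4 it was 83.1, 38.6 and 57.1 CPM in KO, against 369, 416 and 296 in WT. The KO libraries lay above the WT libraries at day 1 and far below them at day 4. The most abundant of these markers were Col1a1, Sparc, Col1a2 and Col3a1, with 29996, 12294, 11606 and 9786 counts over the 12 libraries, so the sum is largely collagen. In bulk RNA, fewer cells of a type and less RNA per cell cannot be told apart. Markers of other cell types gave few calls with all libraries. Those of endothelium (11 tested, 0 called, median -1.22) summed to 19.7 to 34.9 CPM in KO at day 1 against 19.8 to 25.6 in WT, and to 1.73 to 3.84 CPM in KO at day 4 against 2.34 to 6.67 in WT. Of these, Flt1, a receptor of vascular growth factor (-3.38, adjusted p = 0.051), and the endothelial cadherin Cdh5 (-2.46, adjusted p = 0.053) narrowly missed the threshold. Flt1 passed in 8 of 10 other settings and without KO day 4 library 1 (adjusted p = 0.036) or WT day 4 library 3 (0.0027), and Cdh5 in 3 of 10 and without KO day 1 library 3 (0.039) or WT day 4 library 3 (0.00033). Those of macrophages (9 tested, 0 called) had a median of -0.07, and islet markers (11 tested, 0 called) a median of 0.14. Among 7 smooth muscle genes (median -1.34, 3 positive and 4 negative) only Myh11 was called. That call was higher, on 0, 0.0682 and 0 CPM in KO at day 1, and its fold is not given. The 2 tested mesothelium markers had a median of -1.96 and 0 calls. The single tested markers of T cells (0.76), Schwann cells (0.73) and red blood cells (0.83) were positive and not called. Fabp4, a lipid-binding protein of adipocytes and endothelium, was called lower (-3.21, adjusted p = 0.0052), with 1.4, 1.43 and 1.39 CPM in KO at day 1 against 0.556, 0.414 and 0.371 in WT, and 0.130, 0.0337 and 0.111 CPM in KO at day 4 against 0.233, 0.396 and 0.216 in WT. The defining adipocyte gene Adipoq was at 0 counts in 12 of 12 libraries, as were Ly6g of neutrophils, Cd8a of T cells and Cr2 of B cells. The part of fibroblast content in the matrix result was not tested. Without KO day 1 library 1 the called fibroblast markers were 5 of 13 and their median -2.90, and without WT library 1 at every day they were 3 of 13 with a median of -3.82.

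Genes that remodel matrix or attract leukocytes followed, with smaller groups of calls. Of all tested genes 1.67% were called lower and 0.924% higher. Among 31 inflammatory cytokines and chemokines 5 were called lower and 1 higher (median -0.40), among 15 metalloproteinases and their inhibitors 5 lower and 0 higher (median -0.79), among 31 integrins, laminins and focal adhesion genes 5 lower and 0 higher (median -0.28), and among 21 coagulation and acute phase genes 3 lower and 0 higher (median -0.43). Without WT library 1 at every day the lower calls were 0 of 31 cytokines and chemokines, 1 of 15 metalloproteinases and inhibitors and 1 of 31 adhesion genes.

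Ccl2, the monocyte chemokine (chromosome 11, 82035571 to 82037453), had 15.6, 15.8 and 4.56 CPM in KO at day 1 and 2.97, 6.93 and 6.59 CPM in WT. On day 4 Ccl2 had 0.324, 0.286 and 0.111 CPM in KO, against 3.73, 4.63 and 3.17 in WT. The genotypes overlapped at day 1 and were apart at day 4. Ccl2 fell by 5.63 on the log2 scale in KO cells (adjusted p = 3.2e-05) while its WT change of -0.51 did not pass (adjusted p = 0.42), so here the difference of -5.12 ± 0.78 (SE, adjusted p = 0.011) lay in the KO arm. Its genomic neighbour Ccl7, another monocyte chemokine, had 7.28, 6.34 and 1.08 CPM in KO at day 1 against 1.39, 2.48 and 2.79 in WT, and 0.486, 0.253 and 0.206 CPM in KO at day 4 against 2.30, 2.08 and 1.31 in WT. It showed the same order, with a difference of -3.73 (adjusted p = 0.0073). Csf1, the growth factor of macrophages, had 34.6, 31.4 and 14.1 CPM in KO at day 1 against 13.2, 17.1 and 17.6 in WT, and 9.99, 6.25 and 5.93 CPM in KO at day 4 against 27.6, 32.5 and 20.8 in WT. Csf1 fell in KO and rose in WT cells, with a difference of -2.62 ± 0.42 (SE, adjusted p = 0.0048). Ccl2, Ccl7 and Csf1 were called in all 12 fits without a library and in none of them changed direction, but without WT library 1 at every day their adjusted p was 0.067, 0.11 and 0.075.

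The gelatinase Mmp2 differed by -3.43 (adjusted p = 0.018), the gelatinase Mmp9 by -3.59 (adjusted p = 0.015) and the stromelysin Mmp3 by -2.70 (adjusted p = 0.023). These calls were less stable: the metalloproteinase list kept 1 to 6 calls over the 12 fits, with 1 without KO day 1 library 2 or WT day 4 library 2, 2 without WT day 1 library 1, KO day 4 library 2, KO day 4 library 3 or WT day 4 library 1, and 3 without KO day 1 library 1, WT day 1 library 2 or WT day 1 library 3. The plasminogen activator Plau (-1.71, adjusted p = 0.015) was called in 8 of the 12 fits, with adjusted p up to 0.13 in the rest. Tfpi2, a protease inhibitor of the matrix, was called in all 12, whereas Mmp2, Mmp9 and Plau lost their calls without WT library 1 at every day, with adjusted p of 0.13, 0.055 and 0.1. Tfpi2 fell in KO cells, with 7.28, 3.41 and 2.63 CPM at day 1 and 0.389, 0.219 and 0.206 CPM at day 4, against 0.463, 1.65 and 0.743 CPM and 0.772, 0.965 and 0.522 CPM in WT (difference -3.70 ± 0.63 SE, adjusted p = 0.00086).

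Among adhesion genes, the fibronectin receptor chain Itga5 had 20.2, 14.9 and 12.1 CPM in KO at day 1 and 7.60, 11.1 and 12.4 CPM in WT. Itga5 at day 4 had 13.1, 10.8 and 11.7 CPM in KO, against 26.2, 26.6 and 22.5 in WT. The genotypes overlapped at day 1 and were apart at day 4, with a difference of -1.69 ± 0.26 (SE, adjusted p = 0.00086). The laminin chain Lamb1 differed by -2.28 (adjusted p = 0.0096) and the integrin chain Itgb5 by -0.73 (adjusted p = 0.014, and 0.059 without KO day 4 library 3). Without WT library 1 at every day their adjusted p was 0.073 and 0.067. The list kept 2 calls without KO day 4 library 3 and 3 without WT day 1 library 1, WT day 1 library 3, KO day 4 library 2 or any of the 3 WT day 4 libraries, and 1 without WT library 1 at every day.

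Outside the matrix, single genes of other lists were lower. Ccnd1, the cyclin of the G1 phase, had 6.74, 6.82 and 4.80 CPM in KO at day 1 and 5.75, 7.03 and 6.31 CPM in WT, and it had 9.60, 9.26 and 9.21 CPM in KO at day 4 against 23.1, 23.3 and 16.4 in WT. It rose in both genotypes, less in KO cells (difference -1.12 ± 0.22 SE, adjusted p = 0.0035, and 0.052 without WT library 1 at every day). It was the sole call among 34 genes of mitosis and DNA replication, of which 31 had a negative difference (median -0.62), and that list summed to 93.7 to 95.5 CPM in KO at day 4 against 123 to 144 in WT, and to 104 to 111 CPM in KO at day 1 against 109 to 113 in WT. Gsto1, an omega-class glutathione transferase, differed by -0.75 (adjusted p = 0.0014), with 39.4, 36.6 and 34.8 CPM in KO at day 4 against 50.4, 52.5 and 57.5 in WT. The lower calls further held Abcc4 (an efflux pump), Vars and Farsb (aminoacyl-tRNA synthetases), Prom1 (a duct marker), Gjb1 (a gap junction protein), Ctsl (a lysosomal protease), Anxa1 (an annexin) and Xbp1 (a transcription factor of the secretory apparatus), with differences between -1.26 for Abcc4 and -0.48 for Farsb. Vars lost its call without KO day 4 library 2 (adjusted p = 0.052), and each of the others in 7 or more of the 12 fits without a library.

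The higher calls included stress genes whose level at day 1 was lower in KO than in WT cells. Among 21 heat shock chaperones 4 were called higher and 0 lower (median 0.36), among 29 p53 targets 4 higher and 0 lower (median 0.25), among 39 ATF4 targets and genes of the amino acid response 2 higher and 0 lower (median -0.17), and among 28 caspases and BCL2 family members 2 higher and 0 lower (median 0.03). Over all tested genes 0.924% were called higher and 1.67% lower. Pmaip1 is in both the p53 and the caspase list, so the counts of those lists are not separate. Heat shock proteins refold damaged proteins and are induced by heat and by oxidants. The other genes answer to DNA damage, to shortage of amino acids or to kinase signalling.

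Hsph1, a co-chaperone of the HSP110 family (chromosome 5, 149614287 to 149636376, - strand), had 141, 142 and 111 CPM in KO at day 1, against 283, 309.5 and 237 in WT. Hsph1 at day 4 had 55.0, 54.1 and 49.7 CPM in KO and 51.2, 43.8 and 43.7 CPM in WT. Every KO library was below every WT library at day 1, and at day 4 the genotypes overlapped. Hsph1 fell in both (log2 change -1.31 in KO and -2.58 in WT cells), so its difference was 1.27 ± 0.16 (SE, adjusted p = 2e-05). The HSP40 co-chaperone Dnajb1 had 73.4, 60.4 and 64.7 CPM in KO at day 1 against 124, 134 and 114 in WT, and 18.7, 17.3 and 16.5 CPM in KO at day 4 against 19.0, 15.9 and 16.7 in WT. The genotypes differed at day 1 and overlapped at day 4 (difference 0.93 ± 0.13 SE, adjusted p = 0.00011). The heat shock list as a whole summed to 4000 to 4399 CPM in KO at day 1 against 5231 to 5689 in WT, and to 3512 to 3803 CPM in KO at day 4 against 3539 to 4013 in WT. Hspe1, the mitochondrial HSP10, was called (0.60, adjusted p = 0.036) but lost its call in 10 of 12 fits, and the list kept 2 calls in each of those and 4 without KO day 1 library 1 or WT day 1 library 3. With scaling by library totals it kept 2 calls (median 0.21), and without WT library 1 at every day likewise 2 (median 0.35).

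Dusp1, a phosphatase that turns off MAP kinases, had 30.6, 27.6 and 30.6 CPM in KO at day 1 against 48.2, 54.0 and 51.1 in WT. On day 4 Dusp1 had 18.1, 18.8 and 16.9 CPM in KO against 12, 11.9 and 11.2 in WT. It was lower in KO on day 1 and higher in KO on day 4, with no overlap on either day, and the difference was 1.4 ± 0.17 (SE, adjusted p = 9.4e-06). Gadd45b, a growth arrest gene induced by stress, had 53.7, 42.7 and 32.6 CPM in KO at day 1 against 64.3, 66.4 and 57.8 in WT, and 14.7, 17.2 and 17.1 CPM in KO at day 4 against 10.3, 9.68 and 9.70 in WT. Its libraries were ordered in the same way, without overlap (difference 1.27 ± 0.17 SE, adjusted p = 6.9e-05). The related Gadd45a differed by 0.80 (adjusted p = 0.0064, and 0.082 without WT library 1 at every day). The call of Gadd45a was also lost with scaling by library totals. Gadd45g differed by 1.59 (adjusted p = 0.048) and was called in 1 of 12 fits without a library, with adjusted p of 0.051 to 0.12 in the others.

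Atf3, a transcription factor induced through ATF4 and other stress routes, had 115, 89.4 and 82.8 CPM in KO at day 1 and 162, 129 and 129 CPM in WT. At day 4 it had 11.7, 15.1 and 16.2 CPM in KO against 9.87, 9.99 and 11.7 in WT. KO was below WT at day 1 and narrowly above it at day 4 (difference 1.0 ± 0.21 SE, adjusted p = 0.01, and 0.1 without WT library 1 at every day). Ppp1r15a, which encodes the GADD34 subunit that restores translation after stress, had 87.0, 90.4 and 80.1 CPM in KO at day 1 against 136, 96.7 and 98.9 in WT, and 29.7, 35.9 and 32.9 CPM in KO at day 4 against 21.5, 20.6 and 24.2 in WT. Its genotypes were apart on both days in opposite order (difference 0.94 ± 0.15 SE, adjusted p = 0.00042). Of the other 37 genes of that list none passed the test, among them Chac1, the glutathione-degrading enzyme, with 55.1, 52.8 and 48.4 CPM in KO at day 1 against 55.7, 36.4 and 40.9 in WT, and 22.6, 25.8 and 27.9 CPM in KO at day 4 against 24.8, 23.0 and 26.6 in WT (difference -0.19 ± 0.44 SE, adjusted p = 0.9).

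**Figure D3:**
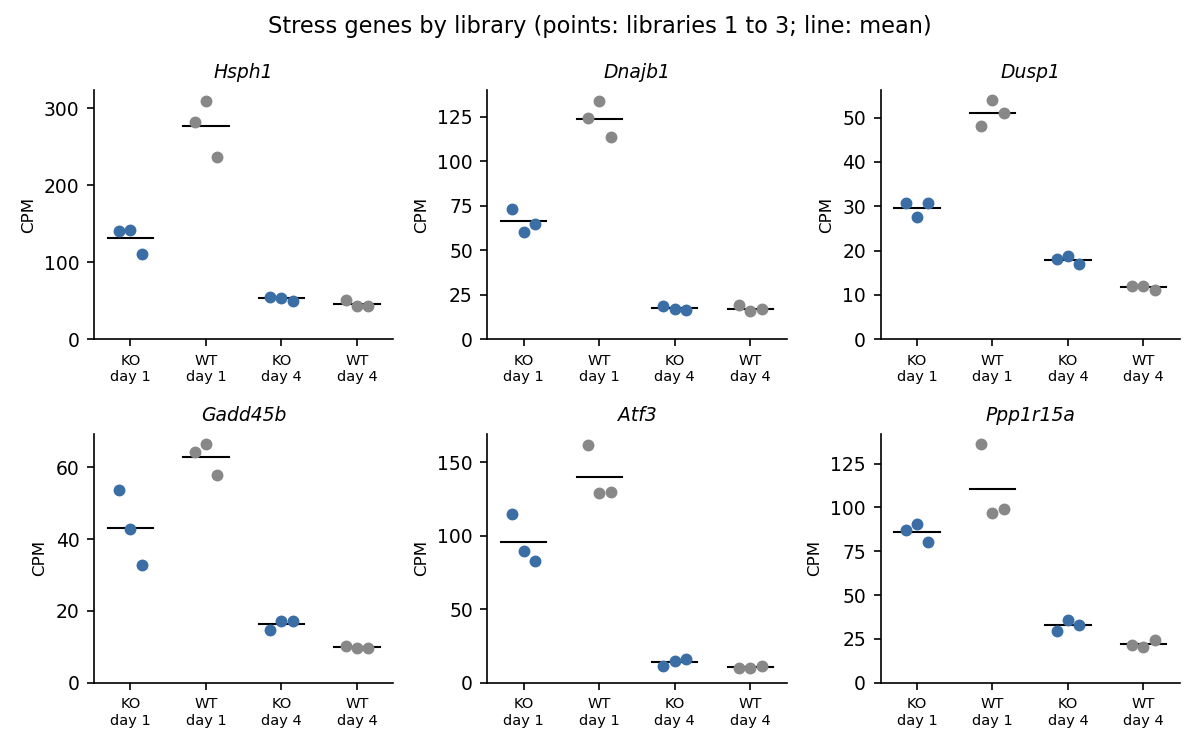
Levels in CPM of 6 stress genes in KO and WT cells at day 1 and at day 4; points are libraries 1 to 3 and lines are group means. The 3 KO libraries lie below the 3 WT libraries at day 1 in every panel, and for Dusp1 they lie above them at day 4, at 16.9 to 18.8 CPM against 11.2 to 12 CPM. The genotypes' libraries did not overlap in 17.1% of all tested genes at day 1 and in 43.7% at day 4.

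Promoters of these genes were read for short motifs on both strands, 250 bases before to 50 bases after the start. RefSeq promoters were matched for 103 of the 122 higher genes, 152 of the 221 lower genes (68.8%) and 9807 of all 13203. The match of the lower genes is under 80%, so a comparison over that set is void. The C/EBP-ATF element TGATGNAA was found in 3.88% of the higher genes' promoters and in 2.16% of all, the antioxidant element TGACNNNGC in 15.5% and 15.1%, the AP-1 site TGANTCA in 2.91% and 5.09%, the interferon-stimulated response element in 5.83% and 2.87%, an NF-kappaB site in 0.971% and 1.76%, and the heat shock element GAANNTTC, which was chosen after the values were seen, in 3.88% and 5.6%. No match overlaps another in the promoters shown. The promoters of Hsph1, Atf3 and Gadd45g are shown as examples of stress genes called higher that hold such a match. The call of Gadd45g held in only 1 of the 12 fits without a library. Matches were also found in Dnajb1, Dusp1 and Ppp1r15a, among others, and none in Gadd45a, Gadd45b and Btg2. In capitals are, for Hsph1 (chr5:149636287-149636586, - strand), the antioxidant element at -132 to -124 and at -96 to -88 and the heat shock element at 41 to 48. For Atf3 (chr1:191183284-191183583, - strand) it is the C/EBP-ATF element at -110 to -103. For Gadd45g (chr13:51846425-51846724, + strand) they are the antioxidant element at -168 to -160 and the C/EBP-ATF element at -101 to -94. A match is a run of letters and does not show binding.
Hsph1: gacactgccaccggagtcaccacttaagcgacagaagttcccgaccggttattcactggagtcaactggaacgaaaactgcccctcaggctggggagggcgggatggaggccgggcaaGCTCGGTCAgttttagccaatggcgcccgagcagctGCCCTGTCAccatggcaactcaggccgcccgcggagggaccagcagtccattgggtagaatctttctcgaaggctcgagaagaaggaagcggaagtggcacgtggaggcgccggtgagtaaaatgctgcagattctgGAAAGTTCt
Atf3: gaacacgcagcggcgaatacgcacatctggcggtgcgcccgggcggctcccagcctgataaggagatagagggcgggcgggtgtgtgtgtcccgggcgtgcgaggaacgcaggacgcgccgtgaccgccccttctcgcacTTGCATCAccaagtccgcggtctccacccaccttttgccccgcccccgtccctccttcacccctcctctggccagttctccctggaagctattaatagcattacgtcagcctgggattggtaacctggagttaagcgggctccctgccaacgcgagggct
Gadd45g: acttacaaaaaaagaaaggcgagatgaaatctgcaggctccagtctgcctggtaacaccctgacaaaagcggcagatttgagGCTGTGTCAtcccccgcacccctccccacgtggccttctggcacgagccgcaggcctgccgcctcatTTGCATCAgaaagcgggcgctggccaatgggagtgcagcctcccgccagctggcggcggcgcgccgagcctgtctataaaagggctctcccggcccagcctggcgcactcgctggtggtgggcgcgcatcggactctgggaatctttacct

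Among p53 targets, the proapoptotic gene Pmaip1 (NOXA) had 1.74, 0.750 and 1.32 CPM in KO at day 1 and 1.95, 2.38 and 1.86 CPM in WT. At day 4 it had 19.8, 20.8 and 22.4 CPM in KO against 11.3, 14.5 and 12.3 in WT. KO was below WT at day 1 and above it at day 4, with no overlap. It rose in both genotypes, more in KO cells (16.5-fold against 6.19-fold, difference 1.41 ± 0.32 SE, adjusted p = 0.014), and its adjusted p was 0.068 without KO day 1 library 2 and 0.064 without WT day 1 library 2, and 0.073 without WT library 1 at every day. The antiproliferative gene Btg2 (0.77, adjusted p = 0.037) and Apaf1, the scaffold of the apoptosome (0.75, adjusted p = 0.048), were called in 4 and 3 of the 12 fits, with adjusted p up to 0.11 and 0.19 in the rest. The p53 list kept 1 call without KO day 1 library 2 and 2 without KO day 1 library 3, WT day 1 library 1, KO day 4 library 2, KO day 4 library 3, WT day 4 library 1 or WT day 4 library 3, and 0 without WT library 1 at every day. With scaling by library totals it kept 1 (median 0.10).

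Nfkbiz, which encodes the nuclear NF-kappaB regulator IkB-zeta (chromosome 16, 55811375 to 55838899), was the sole cytokine-list gene called higher. It had 6.68, 3.61 and 2.55 CPM in KO at day 1 and 7.88, 5.89 and 6.41 CPM in WT, and it had 18.4, 20.6 and 18.5 CPM in KO at day 4 against 7.31, 8.89 and 6.43 in WT. It rose in KO cells (log2 change 2.15, adjusted p = 1.5e-07) and not in WT cells beyond the spread (0.16, adjusted p = 0.6), with a difference of 1.98 ± 0.34 (SE, adjusted p = 0.0022). Rbpjl, the acinar transcription factor that drives enzyme genes, fell in both genotypes, less in KO cells, with 76.0, 63.6 and 68.5 CPM in KO at day 1 against 97.0, 99.1 and 89.8 in WT and 17.2, 17.6 and 24.9 CPM in KO at day 4 against 12.6, 11.7 and 16.4 in WT (difference 1.01 ± 0.18 SE, adjusted p = 0.0015). Its antisense neighbour Matn4 overlaps it. Ocln, the tight junction protein occludin, differed by 0.58 (adjusted p = 0.0036), Ptpn14, a phosphatase that restrains YAP, by 0.62 (adjusted p = 0.0097, and 0.071 without WT library 1 at every day), Slc30a2, a zinc exporter, by 0.94 (adjusted p = 0.042), and Vegfa, the vascular growth factor, by 0.51 (adjusted p = 0.048). The last pair was called in 3 and 1 of the 12 fits without a library, with adjusted p up to 0.19 for Slc30a2 and 0.18 for Vegfa. With scaling by library totals Ocln, Ptpn14, Slc30a2 and Vegfa were not called.

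A further group of higher genes separated the genotypes at day 4 and not at day 1. Atg9b, a lipid scramblase of autophagy (chromosome 5, 24384181 to 24392143, - strand), carried the smallest adjusted p of the named genes. It had 6.07, 4.23 and 4.87 CPM in KO at day 1 and 4.82, 5.79 and 4.83 CPM in WT, and 7.44, 7.76 and 7.45 CPM in KO at day 4 against 1.4, 1.77 and 1.49 in WT. The genotypes overlapped at day 1 and were far apart at day 4. Atg9b rose in KO (log2 change 0.58, adjusted p = 0.0063) and fell in WT cells (-1.72, adjusted p = 2.2e-08), with a difference of 2.29 ± 0.27 (SE, adjusted p = 7.7e-06). Its antisense neighbour Nos3 overlaps 294 bases of it and was not called (-1.21, adjusted p = 0.6).

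The cyclins Ccnl1 and Ccnl2 act in transcription and splicing. Ccnl2 had 14.8, 10.6 and 9.75 CPM in KO at day 1 and 11.3, 11.2 and 9.19 CPM in WT, and 21.1, 22.7 and 25.9 CPM in KO at day 4 against 8.58, 9.80 and 7.47 in WT. The day 1 levels overlapped, and at day 4 KO was the higher in every library (difference 1.28 ± 0.21 SE, adjusted p = 0.00052). Ccnl1 differed by 1.46 (adjusted p = 0.0017). Paxbp1, a chromatin-associated cofactor, had 7.34, 5.59 and 5.11 CPM in KO at day 1 against 6.67, 6.0 and 6.96 in WT and 9.42, 10.6 and 12.1 CPM in KO at day 4 against 3.98, 4.51 and 3.26 in WT, which again overlapped at day 1 only (difference 1.57 ± 0.26 SE, adjusted p = 0.00049). Snhg17, a noncoding host transcript of small nucleolar RNAs, differed by 2.03 (adjusted p = 0.0027) and Metap1d, a mitochondrial methionine aminopeptidase, by 1.42 (adjusted p = 0.0053). Fam193b (1.35, adjusted p = 0.022) and Lcat (2.36, adjusted p = 0.037), the acyltransferase of plasma cholesterol, were each called in 5 of the 12 fits without a library, with adjusted p up to 0.085 and 0.13 in the rest.

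Malat1 and Neat1, long noncoding RNAs that stay in the nucleus, were higher in KO than in WT cells at day 4, but the difference of their changes missed the threshold. Malat1 had 11.7, 3.21 and 3.40 CPM in KO at day 1 and 3.43, 4.65 and 4.27 CPM in WT. At day 4 it had 45.8, 49.0 and 46.3 CPM in KO against 6.01, 7.41 and 6.93 in WT, with no overlap. The difference of 2.20 ± 0.55 (SE) had an adjusted p of 0.059, and 2.6e-08 without KO day 1 library 1. Neat1, the scaffold of paraspeckles, had 79.7, 23.9 and 23.5 CPM in KO at day 1 against 26.0, 22.9 and 34.7 in WT and 58.4, 69.9 and 82.5 CPM in KO at day 4 against 8.85, 14.4 and 9.03 in WT. Its day 4 groups were apart too, with a difference of 2.09 ± 0.57 (SE, adjusted p = 0.083, and 9e-05 without KO day 1 library 1). Over the other 11 fits without a library neither passed. Xist, which coats the inactive X chromosome of female cells, had 167, 206 and 215 CPM in KO at day 4 against 0, 40.8 and 28.9 in WT and was not called (adjusted p = 0.71). The list of 8 such RNAs had a median of 0.58 and 0 calls, and 2 calls without KO day 1 library 1. The share of nuclear RNA in the KO day 4 libraries was not tested.

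**Figure D4:**
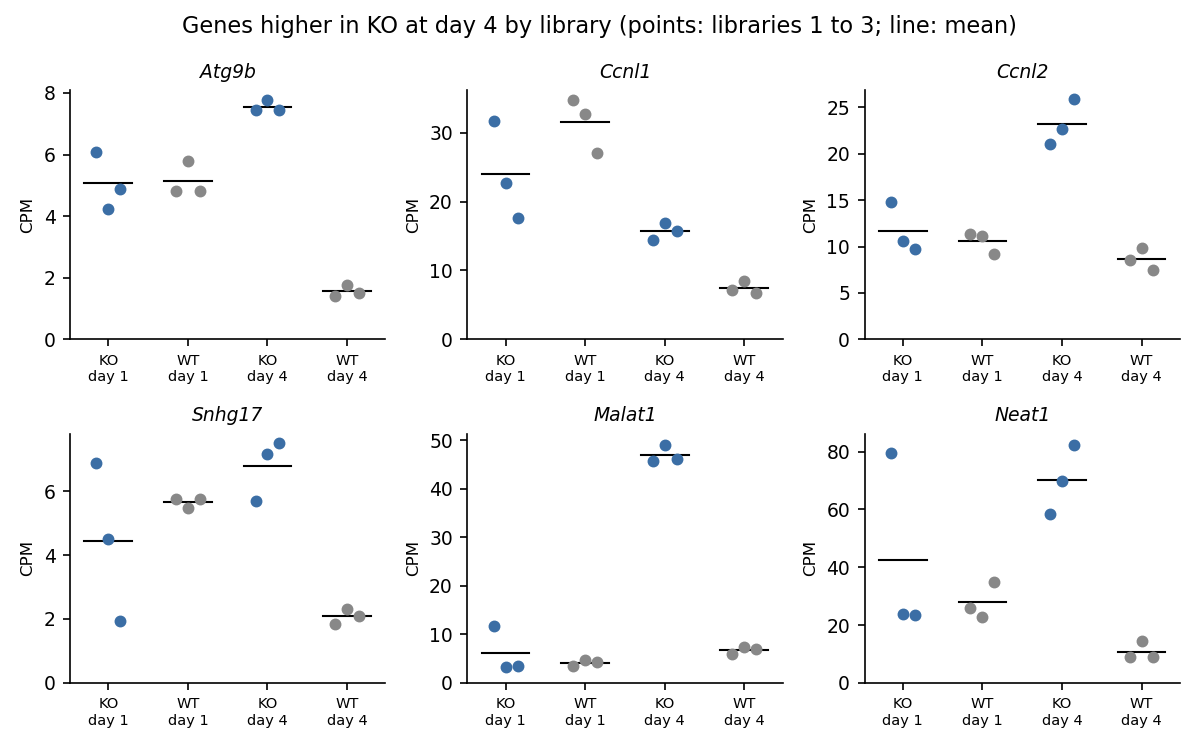
Levels in CPM of 6 genes that were higher in KO than in WT cells at day 4, for KO and WT at day 1 and at day 4; points are libraries 1 to 3 and lines are group means. At day 4 the KO and WT libraries do not overlap in any panel, as in 43.7% of all tested genes, and for Malat1 and Neat1 library 1 is the highest KO library at day 1.

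With all libraries, no gene of glutathione synthesis or of ferroptosis, the steps downstream of xCT, passed the test of the difference. Of 23 genes of glutathione synthesis and recycling 0 were called (median -0.27, 21 of 23 negative). Of these, G6pdx, which supplies NADPH to the reductase, differed by -0.56 (adjusted p = 0.14), and by -0.71 (adjusted p = 0.022) without KO day 1 library 1. Of 39 genes of ferroptosis and iron handling 0 were called too (median -0.09). The heavy chain Slc3a2 had 318, 349.9 and 339 CPM in KO at day 1 against 350.0, 315 and 349 in WT and 121, 144 and 142 CPM in KO at day 4 against 148, 127 and 144 in WT. The genotypes overlapped on both days (difference -0.03 ± 0.16 SE, adjusted p = 0.96). Gclm, the regulatory subunit of the enzyme that starts glutathione synthesis, differed by -0.44 ± 0.16 (SE, adjusted p = 0.17), its catalytic partner Gclc by -0.02 ± 0.23 (adjusted p = 0.99), the synthetase Gss by -0.27 ± 0.18 (adjusted p = 0.53) and the reductase Gsr by 0.11 ± 0.17 (adjusted p = 0.83). Gpx4 had 54.5, 43.4 and 51.5 CPM in KO at day 1 against 47, 51.0 and 56.5 in WT and 44.7, 47.3 and 51.7 CPM in KO at day 4 against 55.0, 57.4 and 58.9 in WT. Only the day 4 libraries did not overlap, and the difference was -0.20 ± 0.17 (SE, adjusted p = 0.64).

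Genes often read as markers of ferroptosis did not pass with all libraries. Ptgs2, the inducible cyclooxygenase, had 11.1, 9.89 and 1.93 CPM in KO at day 1 against 2.78, 8.89 and 8.17 in WT and 27.4, 18.4 and 12.3 CPM in KO at day 4 against 28.3, 29.2 and 25.6 in WT (difference -0.76 ± 0.72 SE, adjusted p = 0.7). The transferrin receptor Tfrc differed by 0.33 ± 0.36 (adjusted p = 0.75), the lipid synthetase Acsl4 by 0.05 ± 0.17 (adjusted p = 0.93) and the heme oxygenase Hmox1 by -0.62 ± 0.33 (adjusted p = 0.43). The members with the smallest p were Sat1, a polyamine acetyltransferase (0.49, adjusted p = 0.07), and the small heat shock protein Hspb1 (0.43, adjusted p = 0.14). Sat1 passed without KO day 1 library 1 (0.56, adjusted p = 0.03) and without KO day 4 library 1 (0.56, adjusted p = 0.048), and in 4 of 10 other settings. In simulated counts with these library sizes the same test called 58.2% of genes given a difference of 1 on the log2 scale, 89.6% at 2 and 95.5% at 4. The simulated differences were placed only in genes above a minimum mean count. A difference of 1 or more could therefore also have been missed, as in genes with a wide spread such as Ptgs2 (SE 0.72).

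The loss of acinar transcripts was seen in both genotypes. The 31 acinar enzyme genes had a median change of -5.40 log2 in KO and -5.30 log2 in WT cells, with 0 called for a difference (median -0.14). They summed to 665130 to 735390 CPM in KO at day 1 against 882670 to 924250 in WT, and to 27420 to 33663 CPM in KO at day 4 against 37803 to 56766 in WT. These sums are scaled and are not shares of the counts. The TMM factors were 0.888 to 0.968 in KO and 0.739 to 0.762 in WT at day 1. At day 4 they were 3.24 to 3.38 in KO and 2.76 to 3.09 in WT. The pancreatic amylase Amy2a5 differed by 0.41 ± 0.61 (adjusted p = 0.83). The progenitor factor Mecom rose in both genotypes (3.51-fold in KO, 4.87-fold in WT, difference -0.47 ± 0.27 SE, adjusted p = 0.44). The lectin Reg3a differed by -0.56 ± 1.15 (adjusted p = 0.88) and the tissue factor F3 by 0.08 ± 0.33 (adjusted p = 0.95). The duct keratin Krt19 had 321, 432 and 503 CPM in KO at day 1 against 443, 509 and 554 in WT and 101, 108 and 109 CPM in KO at day 4 against 213, 198 and 168 in WT. It fell in both, and the difference of -0.60 ± 0.17 (SE) missed the threshold (adjusted p = 0.06). Krt19 passed without KO day 1 library 1 (-0.76, adjusted p = 0.0039) and without WT day 4 library 3 (-0.69, adjusted p = 0.03). Of the 40 pathway lists 17 held no called gene, among them interferon response (33 tested, median -0.31), the unfolded protein response (28 tested, 0.02), sterol and fatty acid synthesis (32 tested, -0.18), the AP-1 factors (17 tested, 0.27), ribosomal proteins (44 tested, 0.13) and the nuclear-encoded respiratory chain (38 tested, 0.04).

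**Figure D5:**
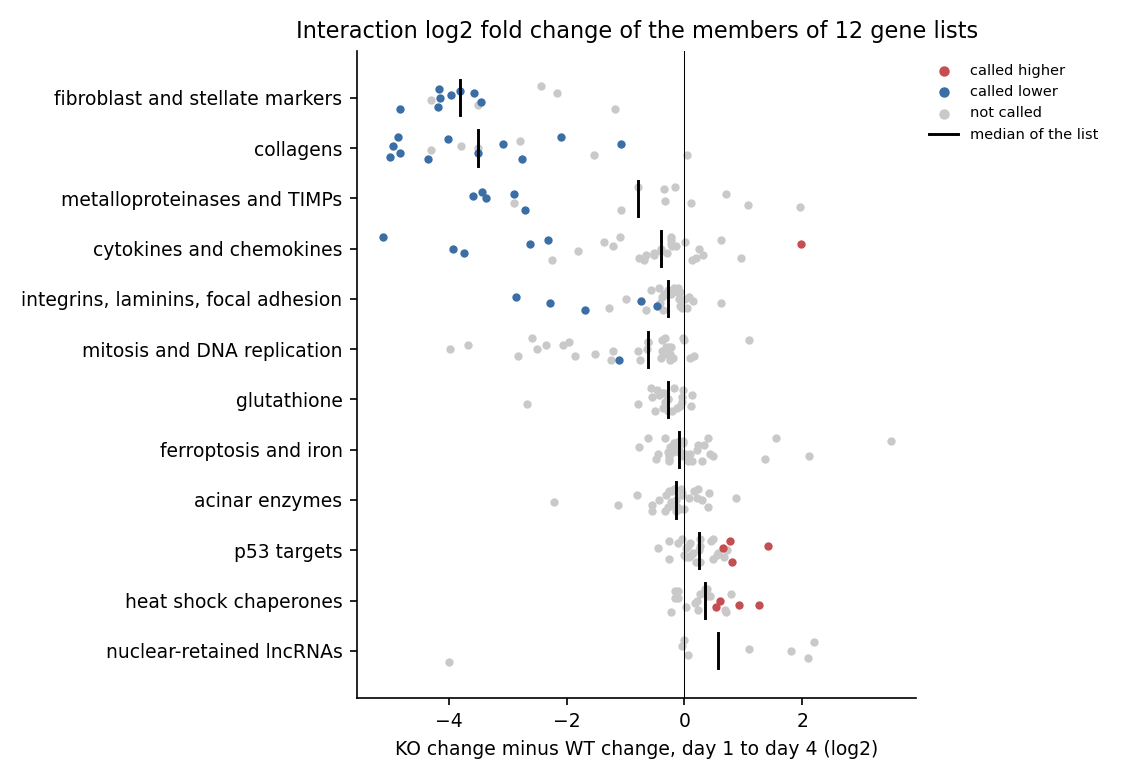
Difference of the log2 changes (KO minus WT, day 1 to day 4; horizontal axis) of each tested member of 12 gene lists (rows); points are genes, red where called higher, blue where called lower and grey where not called, and the black bar is the list median. The fibroblast markers and collagens lie to the left with medians of -3.82 and -3.50, and the glutathione, ferroptosis and acinar enzyme lists hold 0 called genes.

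The called genes shared few features that the test did not use. Their median length in the count table was 5076 bp for the higher genes, 4416 bp for the lower and 3910 bp for all tested genes, and their median GC content 46.4%, 52.2% and 49.8%. The median number of exons was 10, 11 and 9. Of the higher genes 0, and of the lower genes 5 (2.26%), lie on the X chromosome, against 3.23% of all tested genes, and no tested gene lies on the Y chromosome. Of the 127 named genes, 16 overlap another tested gene and 15 of these a gene on the opposite strand, whose reads cannot be told apart without the strand setting. Of the higher genes 102 of 122 and of the lower genes 173 of 221 were in none of the lists.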

How the data were processed

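Acinar cells were cultured in suspension and RNA-sequenced on days 0, 1 and 4 in both genotypes. Per the labels and the study's methods, the authors made single-end TruSeq libraries, read them on a NovaSeq, trimmed bases under quality 20 and dropped reads under 35 bp with FastX and ShortRead, and ran featureCounts 1.5.3 against Ensembl's GRCm38 annotation to count reads. Which aligner and which strand setting they used is not given in the sources used here. The deposited table of raw counts was used, and a table of quantile-normalized FPKM values for 13324 genes was not.

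All 18 libraries entered 1 model with a mean for each of 6 groups, in edgeR 4.0.16 (R 4.3.3): filterByExpr, TMM scaling and the robust quasi-likelihood F-test, with Benjamini-Hochberg adjustment over all 13203 genes. The contrast was the KO change minus the WT change. The standard error was the log2 fold change over the square root of F. CPM is counts per 1000000 of the scaled library total. The test was checked on simulated counts for 12933 genes. Alternatives were scaling by RLE size factors or library totals, other count filters, 12 libraries only, no robust step, a replicate block, DESeq2 1.42.0 with a local dispersion fit, and leaving out libraries.

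Members and gene lists were chosen with earlier results of these data known. Genes were named where called with a group mean of at least 5 CPM (12 highest, 12 lowest and 8 smallest adjusted p), as up to 3 called members per direction of each list (or the 2 with the smallest p), or as fixed glutathione, ferroptosis and dedifferentiation genes. Unnamed gene models were counted only. Same-numbered libraries deviated together weakly (r of 0.22, 0.05 and 0.22 in KO and 0.10, 0.13 and 0.03 in WT cells) and were not treated as pairs. Chromosomes of the named genes are from GENCODE on GRCm38, which held 98.7% of the gene IDs, and their starts, ends and strands from the count table. Of the IDs found, 84.5% had the same start and end in both.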

Additional observations from a re-analysis of the deposited data

Results flagged for a closer look

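Each result here was chosen because the KO and WT changes between day 1 and day 4 differed by the test of the difference itself. The counts were 122 higher and 221 lower genes of 13203. Among the lower genes, the difference of the log2 changes (KO minus WT) was -5.77 for Fbn1, -5.12 for Ccl2, -5.09 for Serpinf1, -5.06 for Col5a3, -4.99 for Col5a1, -4.94 for Col6a3 and -4.85 for Col6a2. It was -4.83 for Col1a1, -4.69 for Igfbp4, -4.65 for Fscn1, -4.58 for Lox, -4.46 for Fgf2 and -3.77 for Axl. Among the higher genes it was 0.93 for Dnajb1, 1.27 for Gadd45b, 1.27 for Hsph1, 1.28 for Ccnl2, 1.35 for Fam193b, 1.4 for Dusp1, 1.41 for Pmaip1 and 1.42 for Metap1d. It was 1.46 for Ccnl1, 1.57 for Paxbp1, 1.59 for Gadd45g, 1.98 for Nfkbiz, 2.03 for Snhg17, 2.29 for Atg9b and 2.36 for Lcat.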

How the results depend on the processing

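The 343 called genes kept their direction in every alternative that tested them, and the counts moved. They were called on this difference in the same or mostly the same libraries, so the kept direction is no separate support. With DESeq2 358 genes were higher and 523 lower. Without the count filter 360 were lower. With the 12 libraries of days 1 and 4 alone 244 were higher and 257 lower. Higher genes were then 48.7% of those called, against 35.6% in the main fit. With library totals 23 were higher. Ocln, Ptpn14, Gadd45a, Gadd45g, Hspe1, Apaf1, Btg2, Slc30a2, Vegfa, Fam193b, Lcat and Myh11 lost their higher calls with that scaling. Leaving out 1 library gave 55 to 176 higher and 125 to 260 lower, and leaving out WT library 1 at every day 32 and 77. In the latter fit Col5a1, Fgf2, Abcc4, Anxa1, Gjb1, Ctsl, Xbp1 and Farsb also lost their lower calls. Hspe1, Apaf1, Btg2, Slc30a2, Vegfa, Gadd45g, Fam193b, Lcat and Myh11 lost their higher calls there. The labels do not say that same-numbered libraries come from 1 culture, but 5 of 6 correlated best with their own number, and WT number 1 held Ddx3y counts at every day. With a replicate block by culture within genotype 240 were higher and 329 lower, and with a block by number across genotypes 221 and 277. The block by culture left the calls of Col5a1, Postn, Mmp2, Abcc4, Anxa1, Atf3, Fam193b and Snhg17 with adjusted p of 0.051, 0.053, 0.066, 0.13, 0.067, 0.11, 0.16 and 0.061, and Sat1, Hspb1 and Reg3a passed with 0.019, 0.014 and 0.003. Among genes that were not called, library totals turned Acsl4 (-0.0946), F3 (-0.0953), Gsr (-0.047) and Hbb-bs (-0.0391), and Gclc was at 0.0032 with 12 libraries and 0.0083 with the replicate block by number. Leaving out 1 library gave -0.0806 to 0.211 for Acsl4, -0.0893 to 1.29 for Amy2a5, -0.18 to 0.37 for F3, -0.16 to 0.15 for Gclc, -1.68 to 0.35 for Msln and -0.097 to 0.0463 for Slc3a2, and leaving out WT library 1 at every day 0.23 for Msln. The cause was not tested. With 3 libraries a group, low levels such as those of Dpt, Postn and Fabp4 rest on few counts.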

Other observations

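Gene groups that were put together after the values were seen are given here as a description. Over all tested genes 0.924% were called higher and 1.67% lower. Of 38 CLK kinases, SR proteins and their partners in splicing, 8 were called higher and 0 lower (median 0.22, against -0.01 over all tested genes): Clk1, Clk4, Srsf5, Srsf11, Rsrc2, Nktr, Ccnl1 and Ccnl2. Srsf5, a splicing factor, had 39.2, 35.5 and 33.9 CPM in KO at day 1 against 37.5, 33.6 and 38.6 in WT, and 39, 40.6 and 44.3 CPM in KO at day 4 against 22.6, 22.8 and 21.2 in WT. The genotypes overlapped at day 1 and were apart at day 4 (difference 0.91 ± 0.17 SE, adjusted p = 0.0027, edgeR).

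Of 35 tested genes of elastic fibres, basement membrane and collagen crosslinking, 15 were called lower and 0 higher (median -1.64). Hspg2, the basement membrane proteoglycan perlecan, had 28.3, 27.3 and 22.7 CPM in KO at day 1 against 19.5, 21.3 and 22.1 in WT, and 24.7, 23.1 and 22.7 CPM in KO at day 4 against 44.1, 49.4 and 46.4 in WT. KO was the higher at day 1 and the lower at day 4 in every library (difference -1.31 ± 0.20 SE, adjusted p = 0.00042). Nid1, the basement membrane linker nidogen-1, differed by -4.15 (adjusted p = 0.0027). Of 25 tested proteoglycans, hyaluronan genes and matricellular proteins, 10 were called lower and 0 higher (median -1.297), among them the proteoglycans Vcan (-3.83, adjusted p = 0.0015) and Bgn (-3.82, adjusted p = 0.015).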
